A study of Mus musculus with 8 samples.

Results

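The genes that make, sense and end the cyclic AMP (cAMP) signal were examined in the transcriptomes of liver and epididymal white adipose tissue (eWAT) of mice labelled Crtc1-/- or Crtc1+/+. Members were chosen by symbol, not by measured value: the adrenoceptors (Adra and Adrb), adenylate cyclases (Adcy), phosphodiesterases (Pde), the regulatory and catalytic subunits of protein kinase A (PKA, Prkar and Prkac) and the Epac genes Rapgef3 and Rapgef4. Of 19348 genes in the deposited table, 51 were members, and the rule left out 1 further phosphodiesterase gene. They were 9 adrenoceptors, 10 cyclases, 20 catalytic phosphodiesterase genes, 3 non-catalytic subunits of the retinal Pde6 enzyme, 4 regulatory and 2 catalytic PKA subunits, 2 Epac genes and Pde4dip, which matched by name but encodes myomegalin, a protein that binds a phosphodiesterase and has no such activity itself.

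RNA was extracted with Trizol from a piece of each tissue of male C57BL/6 mice, 12 weeks old, kept on normal chow and fasted for 16 h before they were sacrificed, and was sequenced at BGI. Mice labelled Crtc1-/- carried a whole-body CRISPR/Cas9 knockout made with guides to exons 2 and 4 of Crtc1, which encodes a coactivator of the transcription factor CREB, and mice labelled Crtc1+/+ were wild-type littermates. Each of the 4 groups (eWAT or liver, labelled Crtc1-/- or Crtc1+/+) held 2 libraries from separate mice, and the labels do not say whether eWAT and liver of the same number came from 1 mouse. The study's methods describe 2 mice per genotype and a piece of both tissues, so the tissues may share animals. The comparisons asked how cAMP signalling genes differed between the genotypes within each tissue, and between the tissues.

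In adipocytes, noradrenaline released by sympathetic nerves acts on beta adrenoceptors, which activate adenylate cyclase through the stimulatory G protein, whereas alpha-2 adrenoceptors inhibit the cyclase and alpha-1 adrenoceptors act mainly through calcium. The cAMP that is made releases the catalytic subunits of PKA from its regulatory subunits, and PKA then drives lipolysis and phosphorylates CREB. Phosphodiesterases break cAMP down, and Epac proteins are cAMP-activated exchange factors for the small GTPase Rap. In liver, glucagon is the main hormone that acts through cAMP during fasting, and it raises gluconeogenic gene expression.

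The libraries held 16560085 to 19721481 estimated counts, so that 3 counts, taken here as the floor of detection, corresponded to 0.152 to 0.181 CPM of the unscaled library total. The CPM printed from here on are reads scaled to a library total multiplied by its TMM factor, a correction for composition. Counts of Crtc1 were not lower in the libraries labelled Crtc1-/-. They reached 58.5 and 33.6 CPM in the knockout-labelled eWAT libraries against 32.6 and 33.7 CPM in the wild-type ones, and 22.1 and 18.0 CPM against 11.7 and 9.86 CPM in liver. A count over the whole gene includes reads outside the deleted exons, so it does not check the genotype, and every direction given here rests on the labels. The eWAT libraries differed in their tissue make-up. Transcripts of 54 epididymis markers took 12.1% and 13.4% of counts in eWAT labelled Crtc1+/+ against 0.0314% and 0.00590% in eWAT labelled Crtc1-/-. Transcripts of 17 adipocyte markers took 0.310% and 0.491% against 5.07% and 2.49%, and those of 13 endothelial markers 0.0517% and 0.0507% against 0.683% and 0.389%. Transcripts of 13 hepatocyte markers took 10.7% of counts in replicate 2 of eWAT labelled Crtc1-/-, 0.126% to 0.651% in the other eWAT libraries and 19.4% to 23.8% in liver. No defining adipocyte, endothelial or hepatocyte marker on these lists was at 0 in any eWAT library, and in liver the adipocyte markers took 0.0445% to 0.0593%.

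In eWAT, Adrb1 and Adrb3, cyclases 3, 4 and 5 and several downstream genes of the pathway were higher in the libraries labelled Crtc1-/-. Of 51 members, 47 passed the filter on low counts. By the quasi-likelihood test of edgeR, with p-values adjusted over all genes, 12 of them (25.5%) passed 0.05, against 12.2% of all 15391 genes tested. Of the 12, 11 were higher in libraries labelled Crtc1-/- (23.4% of members against 6.65% of all genes), among them Adrb1, Adrb3, Adcy3, Adcy4, Adcy5, Pde1b, Pde2a, Pde9a, Prkar2b and Rapgef3, and 1 was lower (2.13% against 5.54%), namely Pde8b. At the study's own threshold, which asks for a change beyond 1 on the log2 scale and a raw p below 0.01, 13 members passed (27.7% against 15.9%), the further one being the lower Prkacb. At an unadjusted p under 0.05 there were 23 members (48.9% against 33.3%). The median log2 fold change was 0.40 over the tested members and -0.05 over all genes. The groups did not overlap for 22 members that were higher (46.8% against 31.3% of all genes) and 15 that were lower (31.9% against 35.4%). The calls needed both libraries labelled Crtc1+/+, since without replicate 1 or without replicate 2 of that group no member and no gene at all was called (lowest adjusted p 0.143 and 0.236), while 15 and 14 members had an unadjusted p under 0.05. Without replicate 1 of eWAT labelled Crtc1-/- more members and more of all genes were called than with both replicates. Without replicate 2 of that group, which held hepatocyte transcripts, members were still called in both directions. Each of these fits left 1 library in the group. With upper-quartile scaling 8 members were higher and 3 lower (1740 of all genes called), and with library-size scaling 7 and 2 (1662 of all genes), against 1875 of all genes with TMM. These scalings moved the median over all genes from -0.05 to -0.25 and -0.35, and each of the 12 members kept its direction under every alternative.

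The beta adrenoceptor genes Adrb1 and Adrb3 were higher in eWAT labelled Crtc1-/-. Adrb3, the main lipolytic receptor of rodent white adipocytes (NCBI Gene 11556, GRCm38.p6 chromosome 8, 27225776 to 27250616, minus strand), was measured at 322 and 305 CPM with the label Crtc1-/- (here and throughout, replicate 1 and then replicate 2) and at 11.4 and 28.2 CPM with the label Crtc1+/+. The groups were far apart, with a log2 fold change of 3.99 ± 0.55 (SE, n = 2 per group, adjusted p = 0.0226). Adrb1, which couples to the same G protein and is better known from the heart, was at 10.2 and 5.62 CPM against 0.771 and 0.311 CPM (3.85 ± 0.79, adjusted p = 0.0435). Its groups did not overlap either. Its call was close to the threshold and was kept in only 8 of 14 alternatives. The fit without replicate 1 of eWAT labelled Crtc1-/- was among those that lost it. The fitted change of Adrb1 ran from 3.37 to 4.62 when each library was left out.

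**Figure D1:**
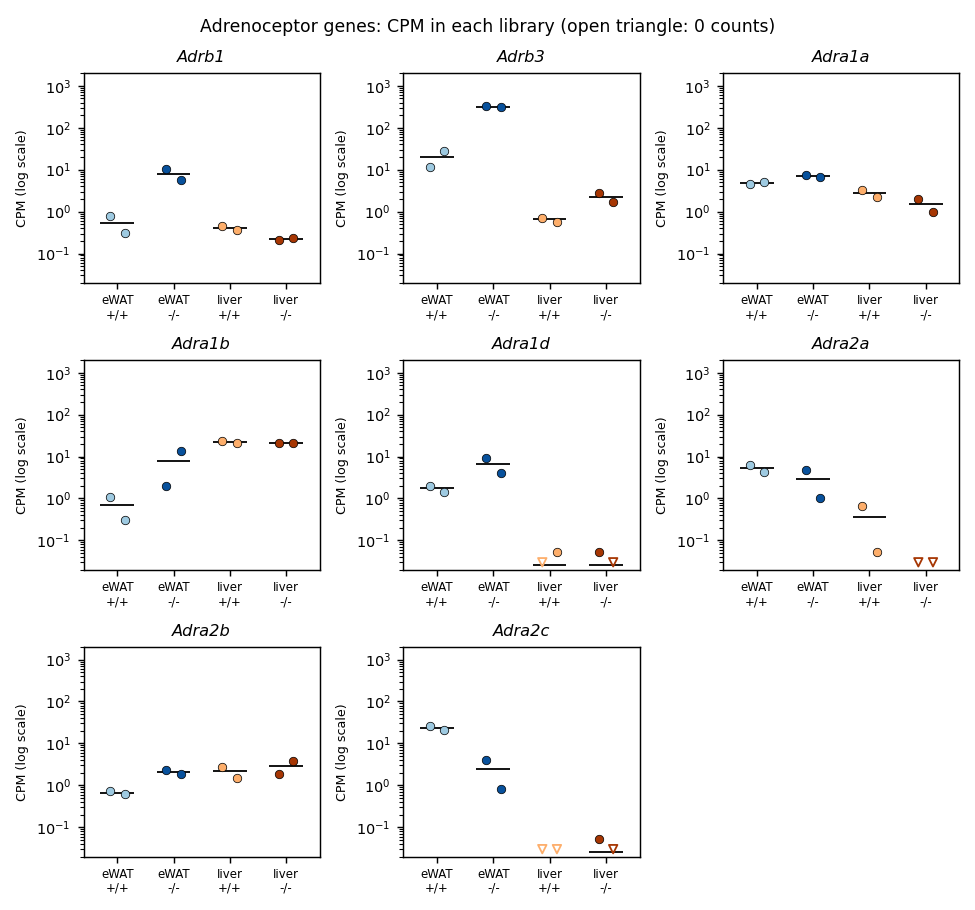
CPM of 8 adrenoceptor genes in each of the 8 libraries on a log axis, by tissue and labelled genotype, with the mean of 2 libraries as a line and 0 counts as open triangles. CPM were scaled within each tissue, so they compare genotypes within a tissue. Adrb3 reached 322 and 305 CPM in eWAT labelled Crtc1-/-, above both libraries labelled Crtc1+/+.

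By edgeR none of the 6 alpha adrenoceptors was called in eWAT, and 3 of them had an unadjusted p under 0.05. Other settings called some of them. Adra2c passed in 6 of 14 alternatives, among them DESeq2 (adjusted p = 4.15e-04) and limma (0.0287), Adra1b in 3 (lowest adjusted p 0.0195), Adra1d in 2 (0.0416), Adra1a and Adra2b in 1 each, and Adra2a in none. Adra2c, an inhibitory receptor, was at 4.12 and 0.833 CPM against 25.6 and 20.9 CPM (-3.22 ± 0.82, adjusted p = 0.0665). The groups did not overlap. Adra2a, the inhibitory receptor of fat and nerve endings, was at 4.73 and 1.04 CPM against 6.21 and 4.20 CPM, and Adra2b was at 2.36 and 1.87 CPM against 0.723 and 0.622 CPM. Among the alpha-1 receptors, Adra1a was at 7.37 and 6.87 CPM against 4.53 and 5.08 CPM, and Adra1d was at 9.40 and 4.03 CPM against 2.02 and 1.45 CPM. Adra1b, the main alpha-1 receptor of hepatocytes, was at 2.03 and 13.4 CPM against 1.11 and 0.311 CPM. Its highest eWAT value was in replicate 2 of the group labelled Crtc1-/-, the library with hepatocyte transcripts. The part of those transcripts in that value was not tested.

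Of the 10 cyclases, all tested, 3 were higher and none was lower in eWAT labelled Crtc1-/-. Adcy4 (chromosome 14, 55769057 to 55784095, minus strand), a calcium-insensitive cyclase, was at 169 and 93.1 CPM against 7.61 and 8.71 CPM (4.003 ± 0.42, adjusted p = 0.0170). Adcy5 (chromosome 16, 35154877 to 35305738, plus strand), a cyclase inhibited by calcium, was at 190 and 150 CPM against 21.6 and 17.3 CPM (3.13 ± 0.31, adjusted p = 0.0169). Adcy3 (chromosome 12, 4133103 to 4213525, plus strand), a cyclase linked to obesity in mice and humans, was at 34.8 and 24.8 CPM against 5.92 and 7.73 CPM (2.13 ± 0.39, adjusted p = 0.0354). No pair of groups overlapped for these genes. Adcy3 shares exonic sequence with Cenpo on the opposite strand, its counts were not whole in any library, and whether strand was used in counting is not given in the sources used here, so its value is uncertain. It lost its call with library-size scaling.

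The other cyclases did not pass the test by edgeR. Adcy6, close kin of Adcy5, was at 170 and 108 CPM against 53.8 and 70.7 CPM (1.16 ± 0.35, adjusted p = 0.0953), and its groups did not overlap. It passed in 2 of 14 alternatives, DESeq2 (adjusted p = 0.0147) and the fit of all 8 libraries (0.0268). Adcy9 was at 13.9 and 18.2 CPM against 13.5 and 17.5 CPM, and its groups overlapped. Adcy8, a calcium-stimulated cyclase named here after its values were seen, was at 11.5 and 0 CPM against 42.1 and 55.1 CPM (-3.07 ± 1.82, adjusted p = 0.283). As a description, the mix of cyclases differed between the groups. Adcy4 and Adcy5 took 43.1% and 26.3% of the summed cyclase FPKM (fragments scaled by transcript length and depth) in replicate 1 labelled Crtc1-/- and 37.4% and 32.8% in replicate 2. In libraries labelled Crtc1+/+, Adcy8 took 28.0% and 30.6% and Adcy6 took 26.9% and 30.7%. The sum was 144.1 and 76.1 FPKM against 39.3 and 43.8 FPKM.

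**Figure D2:**
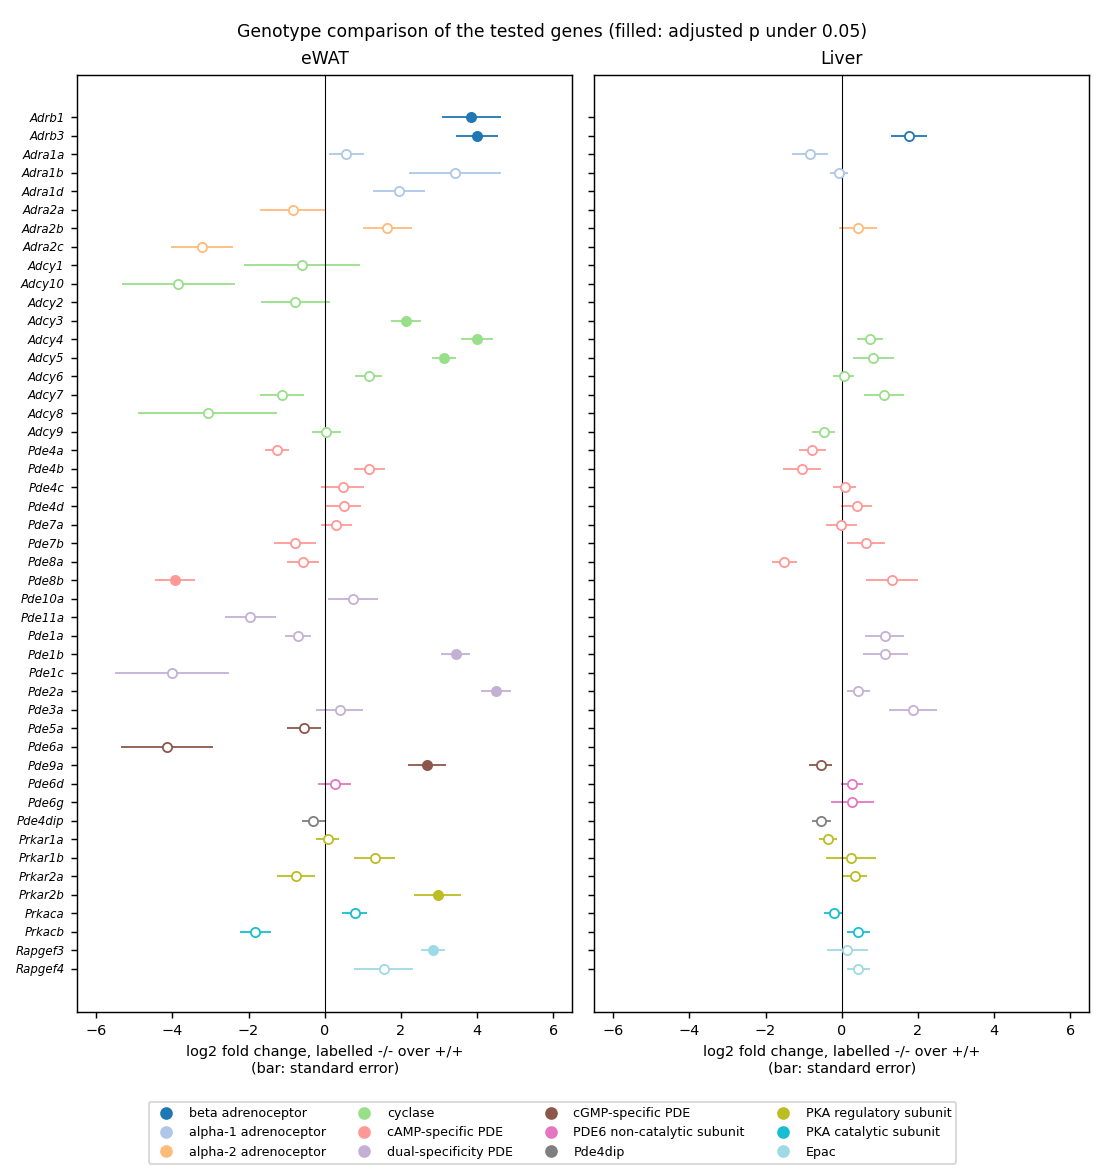
Log2 fold change with its standard error for the tested members reported individually, labelled Crtc1-/- over labelled Crtc1+/+, in eWAT (left) and liver (right), coloured by role and filled where the adjusted p was under 0.05. In eWAT 11 points are filled, 10 to the right of 0 and Pde8b to the left, and in liver none is.

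Among the 20 catalytic phosphodiesterase genes, 18 were tested in eWAT, of which 3 were higher and 1 was lower. Pde2a (chromosome 7, 101421691 to 101512827, plus strand), a phosphodiesterase of both cAMP and cGMP that is stimulated by cGMP, was at 909 and 669 CPM against 33.2 and 36.9 CPM (4.49 ± 0.40, adjusted p = 0.0162). This was the largest fitted rise among the tested members. Pde2a took 82.0% and 77.5% of the summed FPKM of these phosphodiesterase genes in libraries labelled Crtc1-/- and 17.2% and 16.3% in those labelled Crtc1+/+. In the latter no gene held so large a share, and Pde1a, Pde2a and Pde4a were close together. The summed level was 277.0 and 178.6 FPKM against 55.9 and 63.2 FPKM.

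Pde1b, a calcium and calmodulin-stimulated enzyme, was at 41.7 and 32.4 CPM against 3.81 and 3.01 CPM (3.44 ± 0.39, adjusted p = 0.0178). Pde9a, which acts on cGMP and not cAMP, was at 10.9 and 19.0 CPM against 2.46 and 2.18 CPM (2.69 ± 0.51, adjusted p = 0.0373). Its level in liver was 10.1 to 20.7 CPM, its higher eWAT value was in the library with hepatocyte transcripts, and without that library it lost the call (adjusted p = 0.105). Pde8b (chromosome 13, 95024454 to 95250336, minus strand), a high-affinity cAMP phosphodiesterase, was at 1.15 and 0.833 CPM against 12.5 and 17.8 CPM (-3.92 ± 0.53, adjusted p = 0.0216). No groups overlapped for these genes. Pde1a, of the same calmodulin-stimulated family as Pde1b, was at 17.7 and 15.6 CPM against 23.6 and 30.5 CPM (-0.70 ± 0.34, adjusted p = 0.215). Its groups did not overlap and lay in the opposite order to those of Pde1b. Pde4a, a cAMP-specific enzyme, was at 15.6 and 14.8 CPM against 32.2 and 40.6 CPM (-1.26 ± 0.32, adjusted p = 0.0669), and it passed in 3 of 14 alternatives. Pde4c was at 3.85 and 5.28 CPM against 2.70 and 3.89 CPM and Pde8a at 10.4 and 10.9 CPM against 11.8 and 19.97 CPM, and neither passed the test. Pde6b, Pde6c, Pde6g and Pde6h, of the photoreceptor enzyme, were too low in eWAT to be tested. The remaining tested catalytic genes had fitted log2 fold changes between -4.14 and 1.17, and edgeR called none of them. Pde4dip (-0.29 ± 0.30, adjusted p = 0.513) and Pde6d (0.26 ± 0.44, adjusted p = 0.700) were not called either.

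**Figure D3:**
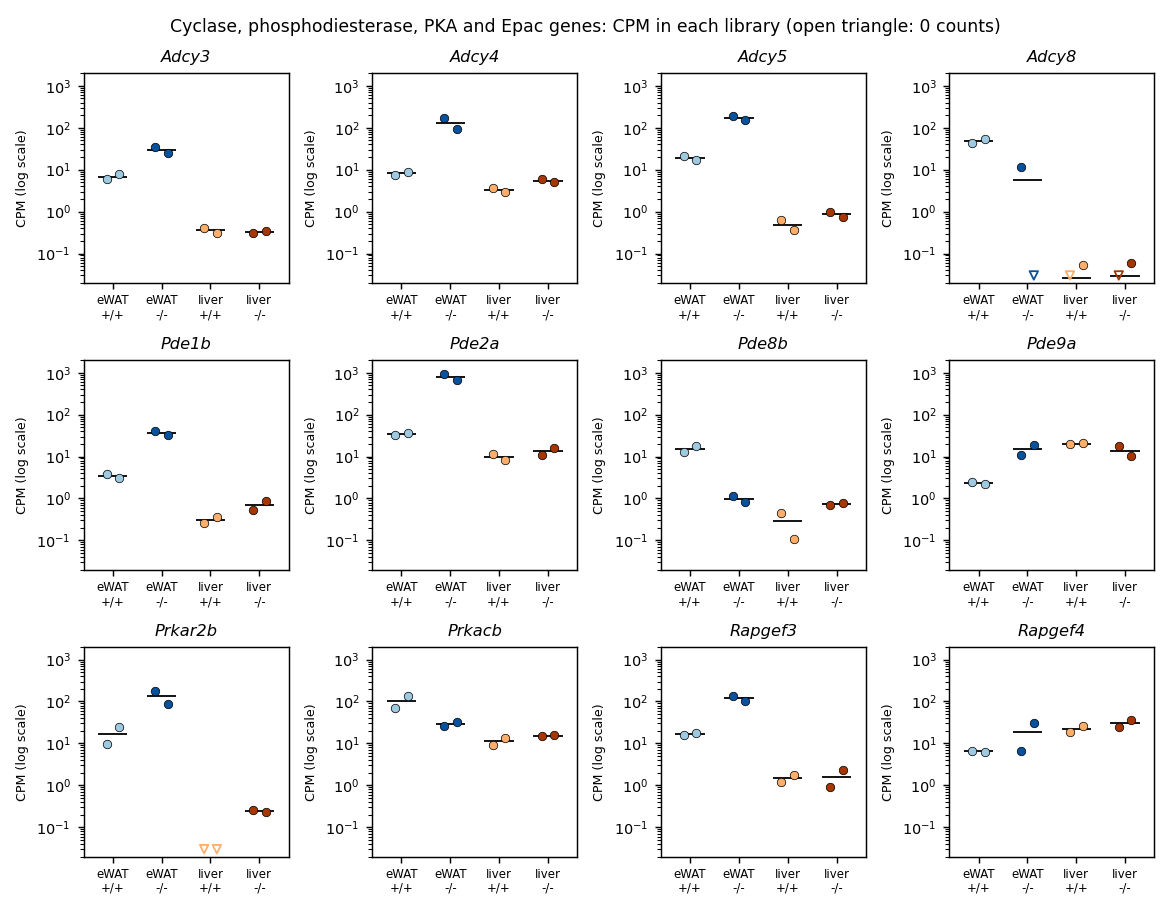
CPM of 12 cyclase, phosphodiesterase, PKA and Epac genes in each library on a log axis, by tissue and labelled genotype, with the mean of 2 libraries as a line and 0 counts as open triangles. CPM were scaled within each tissue. Pde2a reached 909 and 669 CPM in eWAT labelled Crtc1-/- against 33.2 and 36.9 CPM, and Pde8b lay the other way.

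The PKA subunits differed among themselves. Prkar2b (chromosome 12, 31958476 to 32061296, minus strand), the RIIβ regulatory subunit typical of fat and brain, was at 175 and 88.6 CPM against 9.54 and 24.3 CPM (2.96 ± 0.62, adjusted p = 0.0457). Its groups did not overlap, although its call was at the edge of the threshold (adjusted p = 0.0503 and 0.0501 with upper-quartile and library-size scaling). The call was kept in only 7 of 14 alternatives. Prkar1a, the widely expressed RIα subunit, was at 190 and 173 CPM against 152 and 193 CPM (0.07 ± 0.29, adjusted p = 0.875), and its groups overlapped. Prkar1b was at 15.4 and 8.47 CPM against 5.97 and 3.63 CPM, and Prkar2a was at 8.35 and 19.0 CPM against 20.8 and 25.2 CPM. In shares of the regulatory FPKM, Prkar2b took 49.6% and 36.1% in libraries labelled Crtc1-/- and 5.76% and 10.9% in those labelled Crtc1+/+, where Prkar1a took 80.9% and 78.7%. The summed regulatory level overlapped between the groups, at 131.0 and 78.7 FPKM against 65.9 and 83.2 FPKM.

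Prkaca, the main catalytic subunit, was at 230 and 152 CPM against 111 and 110 CPM (0.79 ± 0.33, adjusted p = 0.170). Prkacb, the second catalytic subunit, was at 25.6 and 31.7 CPM against 70.2 and 133 CPM (-1.83 ± 0.41, adjusted p = 0.0523), and it passed in 5 of 14 alternatives. The groups overlapped for neither gene. Prkacb took 5.52% and 9.85% of the catalytic FPKM in libraries labelled Crtc1-/- and 25.0% and 38.4% in those labelled Crtc1+/+, while the summed level overlapped (111.5 and 63.6 FPKM against 78.3 and 91.7 FPKM).

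Rapgef3 (chromosome 15, 97744770 to 97767972, minus strand), which encodes Epac1, was at 138 and 102 CPM against 15.6 and 18.0 CPM (2.84 ± 0.31, adjusted p = 0.0174), with no overlap. Rapgef4, which encodes Epac2, was at 6.76 and 31.2 CPM against 6.74 and 6.22 CPM (1.55 ± 0.77, adjusted p = 0.226). Its high value was again in the library with hepatocyte transcripts, and in liver it was at 18.8 to 36.7 CPM.

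**Figure D4:**
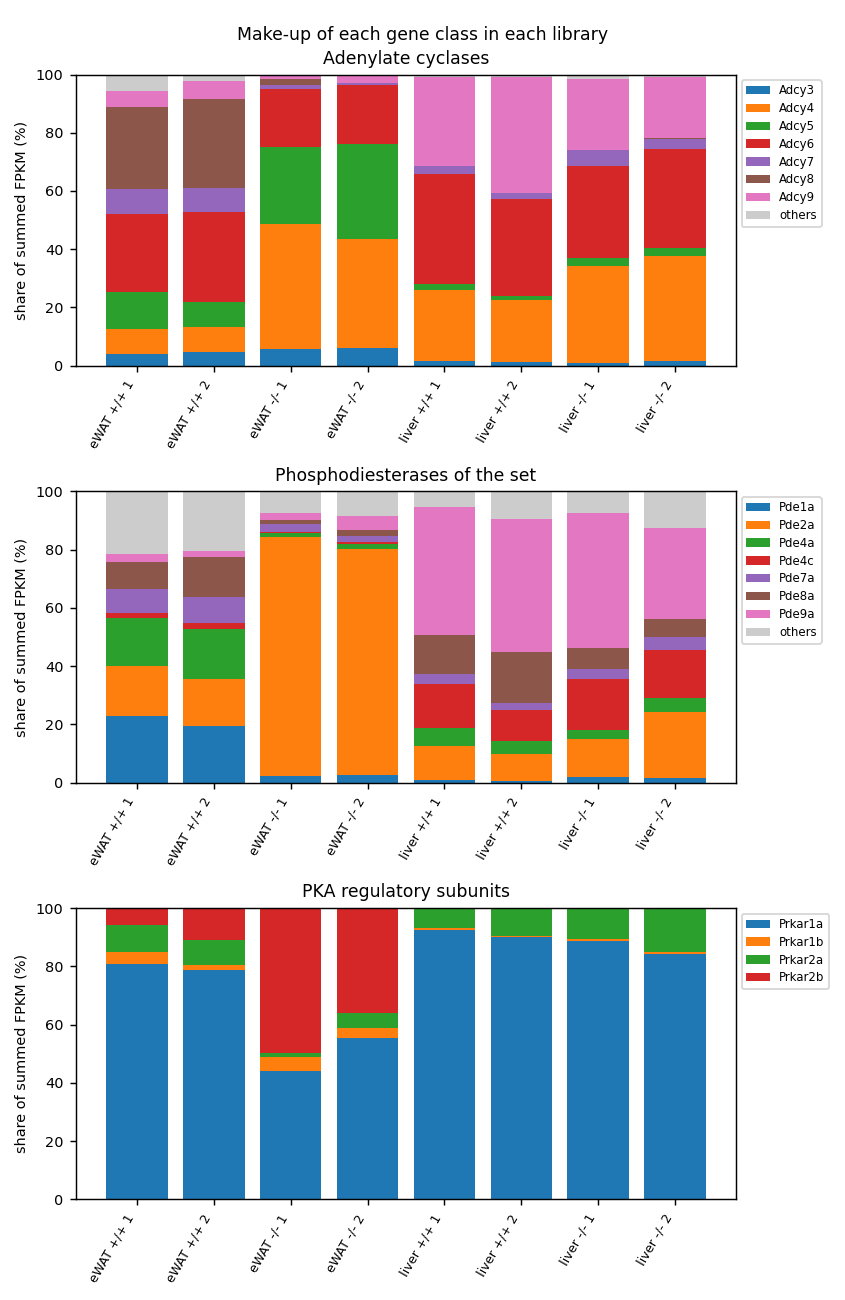
Share of the summed FPKM of 3 gene classes taken by each gene in each library, in percent, with the less abundant cyclases and phosphodiesterases pooled as others. Pde2a took 82.0% and 77.5% of the summed FPKM of the 20 catalytic phosphodiesterase members in eWAT labelled Crtc1-/-. The phosphodiesterase gene left out by the rule is not in that sum. Prkar2b took 49.6% and 36.1% of the PKA regulatory message in the same libraries.

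In bulk tissue, fewer cells of a type and less RNA per cell cannot be told apart, and adipocyte and endothelial markers moved with the same groups. All 13 endothelial markers and 11 of 17 adipocyte markers were called higher in eWAT labelled Crtc1-/-, with median log2 fold changes of 3.35 and 3.63. Of the called members, 11 were therefore also set against the summed reads of each marker list, a description that was chosen after the values were seen and has no test. Per 10000 reads of the adipocyte markers, Adrb3 was at 62.6 and 100.03 in libraries labelled Crtc1-/- and at 41.6 and 62.8 in those labelled Crtc1+/+. On this scale the Adrb3 groups overlapped. Pde2a was at 176 and 219 against 122 and 82.4, and Adcy4 was at 32.8 and 30.5 against 27.9 and 19.4. These 2 genes stayed higher without overlap. Adcy5, Adrb1, Pde1b and Pde9a overlapped, and Adcy3, Prkar2b and Rapgef3 turned lower in the libraries labelled Crtc1-/-. Prkar2b, for example, was at 33.98 and 29.05 against 34.9 and 54.2, and Rapgef3 at 26.8 and 33.6 against 57.2 and 40.2. Pde8b was also lower, at 0.224 and 0.273 against 45.9 and 39.8. Per 10000 reads of the epididymis markers, which themselves were far lower with the label Crtc1-/-, Pde8b lay the other way, at 36.2 and 115.4 against 1.17 and 1.46.

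Per 10000 reads of the endothelial markers the picture was similar. Pde2a was at 1308 and 1406 in libraries labelled Crtc1-/- against 728 and 798, and Adcy4 was at 243 and 196 against 167 and 188, so both were higher without overlap. Adrb1, Adrb3, Pde1b and Prkar2b overlapped, and Adcy3, Adcy5, Pde8b, Pde9a and Rapgef3 were lower in libraries labelled Crtc1-/-. Pde8b was at 1.66 and 1.75 against 275 and 385. What part the adipocyte, endothelial and epididymal shares had in the genotype differences was not tested.

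**Figure D5:**
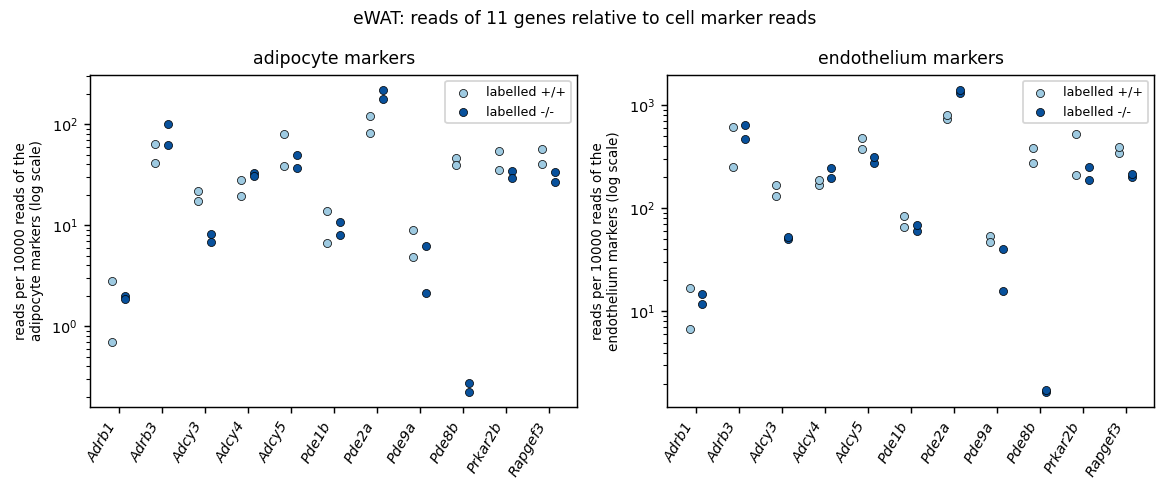
Reads of 11 called members per 10000 reads of the adipocyte markers (left) and the endothelial markers (right) in the 4 eWAT libraries, on log axes. Pde2a and Adcy4 lay higher in both libraries labelled Crtc1-/- on both scales, Adrb3 overlapped at 62.6 and 100.03 against 41.6 and 62.8 per 10000 adipocyte marker reads, and Pde8b lay far lower.

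Promoter sequence was examined because Crtc1 encodes a coactivator of CREB, which binds the cAMP response element (CRE). RefSeq promoters of GRCm38.p6, from 250 bases before to 50 bases after a start site, were matched for 39 of the 51 members, which had 78 such windows. Among those not matched were Adcy6, Adcy8, Adra1a, Adra1d, Adrb3, Pde3a, Pde6a, Pde6c, Pde6g, Pde7a and Pde9a. The full element TGACGTCA, which is the same on both strands, occurred in windows of 1 member, Prkar1a (2.56% of member windows against 1.79% of all 32851 windows). Its half-site TGACG, read on both strands and contained in the full element, occurred in 24.4% of member windows against 20.8% of all windows. Counted by gene, it was in 17 of 39 members (43.6%) against 23.0% of all 27025 genes, but members had more windows per gene, 78 for 39 against 32851 for 27025. Not all of the 12 members called in eWAT had a matched window, Adrb3 and Pde9a being among those without. Windows of the called members Adrb1, Pde2a, Pde8b and Rapgef3 held a half-site, and Pde2a and Pde8b had 5 windows each. Whether called members held it more often than other members was not tested. The stretches of Prkar1a, whose expression overlapped between the genotypes in eWAT, and of Adrb1 and Rapgef3, which were higher in eWAT labelled Crtc1-/-, are printed 5′ to 3′ on the gene's strand with the motif in capitals.
Prkar1a, chr11:109650889-109650918, plus strand, motif 49 bases before the start site: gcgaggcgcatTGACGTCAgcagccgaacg
Adrb1, chr19:56722015-56722043, plus strand, motif 90 bases before the start site: gctgcgggagccTGACGcgcggccccggg
Rapgef3, chr15:97767841-97767869, minus strand, motif 191 bases before the start site: gcttgaacccacTGACGtagtctcgggta
A match describes letters and is no evidence of binding.

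In liver, edgeR called none of the 33 members that passed the filter on low counts, against 0.0854% of all 11707 genes tested. At an unadjusted p under 0.05 there were 3 members (9.09% against 17.3%), namely Adrb3, Pde3a and Pde8a, and DESeq2 called 1, Pde8a (adjusted p = 0.0161), and limma called none. At the study's threshold 2 members passed (6.06% against 4.27%), Adrb3 being higher and Pde8a lower. The median log2 fold change was 0.27 over the members and 0.00 over all genes. The groups did not overlap for 12 members that were higher (36.4% against 25.8%) and 9 that were lower (27.3% against 26.4%).

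In liver Adrb3 was at 2.73 and 1.69 CPM against 0.719 and 0.577 CPM (1.76 ± 0.48, adjusted p = 0.162). Counts were 52 and 29 against 14 and 11, so the values rest on few reads. The groups did not overlap, and the direction was the one seen in eWAT. The adipocyte markers took 0.0593% and 0.0584% of counts in these libraries against 0.0543% and 0.0445%, and Lpl was the 1 adipocyte marker called higher (2.27, adjusted p = 0.0332). Their part in the Adrb3 value was not tested. Pde8a, a high-affinity cAMP phosphodiesterase, was at 3.83 and 2.74 CPM against 8.32 and 10.5 CPM (-1.51 ± 0.33, adjusted p = 0.121). Its groups did not overlap, and it was called without replicate 1 of liver labelled Crtc1-/- (adjusted p = 0.00102) and with no filter on low counts (adjusted p = 0.0199). Leaving out that replicate left 1 library in its group, and far more of all genes were then called as well. The members called were Pde8a and Pde9a, which were lower, and Pde6c, a cone photoreceptor gene named here after its values were seen, which was higher.

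The other members described in eWAT did not pass the test in liver. Prkar1a was at 84.8 and 89.4 CPM against 109 and 115 CPM (-0.36 ± 0.24, adjusted p = 0.453). Prkaca was at 66.9 and 74.2 CPM against 84.3 and 79.1 CPM (-0.21 ± 0.24, adjusted p = 0.677). Both genes had groups that did not overlap, with fitted differences of under 2 standard errors. Rapgef4, the Epac gene of this tissue, was at 24.1 and 36.7 CPM against 18.8 and 26.4 CPM, Adra1b at 21.0 and 21.1 CPM against 23.4 and 20.9 CPM, and Pde9a at 17.5 and 10.1 CPM against 19.9 and 20.7 CPM. Among the cyclases, Adcy4 was at 5.92 and 5.02 CPM against 3.59 and 2.99 CPM (0.73 ± 0.34, adjusted p = 0.303), Adcy6 at 13.2 and 11.3 CPM against 13.04 and 10.5 CPM, and Adcy9 at 12.5 and 8.64 CPM against 13.2 and 16.2 CPM. The Adcy4 groups did not overlap, and those of Adcy6 did. Adcy5 was below 1 CPM in every liver library, at 0.367 to 0.996 CPM. Pde2a, the gene with the largest rise in eWAT, was at 10.95 and 15.8 CPM against 11.3 and 8.45 CPM (0.43 ± 0.30, adjusted p = 0.473), and its groups overlapped. Pde4a was at 2.88 and 3.44 CPM against 6.21 and 4.62 CPM and Pde4c at 11.7 and 9.16 CPM against 11.6 and 8.19 CPM. The Pde4a groups did not overlap (-0.78 ± 0.35, adjusted p = 0.296). Pde1a, Pde1b and Pde8b were each below 1 CPM in all 4 libraries, with fitted log2 changes of 1.12, 1.14 and 1.32 that did not pass the test. Prkacb was at 14.7 and 15.7 CPM against 8.99 and 13.5 CPM, and Prkar2a was at 11.8 and 18.8 CPM against 9.55 and 14.6 CPM. Rapgef3 was at 0.891 and 2.33 CPM against 1.18 and 1.73 CPM, and its groups overlapped. Prkar1b was at 0.210 to 0.719 CPM, and Prkar2b, at 0.262 and 0.233 CPM against 0 in both libraries labelled Crtc1+/+, was not tested. Adra2b was at 1.89 and 3.91 CPM against 2.77 and 1.52 CPM, and Adra1a at 2.04 and 0.992 CPM against 3.29 and 2.20 CPM. Adrb1, Adra1d, Adra2a and Adra2c were too low in liver to be tested, and a difference in them was not detectable at this depth.

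Summed over the class, the liver cyclases reached 7.24 and 5.96 FPKM against 5.89 and 5.38 FPKM, and the phosphodiesterase genes to 21.5 and 18.2 FPKM against 24.3 and 23.2 FPKM. Pde9a took 46.3% and 31.4% against 43.9% and 45.9% of the latter. Of the regulatory PKA message Prkar1a took 88.8% and 84.4% against 92.5% and 90.2%, and of the Epac message Rapgef4 took 95.4% and 93.8% against 93.9% and 93.1%.

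Between the tissues, members were more often higher in eWAT than in liver. Among libraries labelled Crtc1+/+, 33 of 49 members tested in the fit of all 8 libraries were called (67.3% against 54.9% of all 15587 genes), 25 being higher in eWAT (51.0% against 35.0%) and 8 lower (16.3% against 19.8%). Among libraries labelled Crtc1-/-, 22 were called (44.9% against 27.8%), 20 higher in eWAT (40.8% against 18.9%) and 2 lower (4.08% against 8.89%). The split depended on the scaling. With library-size scaling it was 34 higher and 4 lower for Crtc1+/+ and 32 and 1 for Crtc1-/-, and with limma on quantile-normalized log2(FPKM + 1) it was 10 and 12, and 14 and 8. The number of all genes called also changed, from 8552 for Crtc1+/+ and 4330 for Crtc1-/- in the first scaling. It was 11826 and 7127 with library-size scaling and 6751 and 3897 with limma. The median over all genes was 0.61 and 0.20 in the first scaling, 2.003 and 1.33 with library-size scaling and -0.06 for both with limma. The tissue comparisons share these libraries with the genotype comparisons, and eWAT labelled Crtc1+/+ carried the epididymal transcripts. With the replicate number as a block 34 members were called for Crtc1+/+ and 13 for Crtc1-/-.

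The adrenoceptors of eWAT and liver differed in kind. On the scale of all 8 libraries, Adrb3 was at 7.69 and 18.5 CPM in eWAT and 1.11 and 0.896 CPM in liver among libraries labelled Crtc1+/+ (log2 difference 3.70 ± 0.51, adjusted p = 0.00193), and at 189 and 205 against 4.23 and 2.59 CPM among those labelled Crtc1-/- (5.85 ± 0.53, adjusted p = 7.03e-04). Adra1b lay the other way, at 0.749 and 0.204 CPM in eWAT against 36.2 and 32.4 CPM in liver labelled Crtc1+/+ (-6.14 ± 1.04, adjusted p = 0.00388). Among libraries labelled Crtc1-/- its difference was -2.68 ± 0.86 and did not pass the test (adjusted p = 0.0557). Adra2c reached 17.3 and 13.7 CPM in wild-type eWAT and had no counts in the wild-type liver libraries, at least 64.3-fold higher against 3 counts per library. In libraries labelled Crtc1-/- Adra2c was at 2.41 and 0.561 CPM in eWAT, and its bound was at least 5.81-fold. The part of the epididymal transcripts in the wild-type eWAT value was not tested.

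The PKA and Epac isoforms also differed by tissue. Prkar2b had no counts in liver labelled Crtc1+/+ and was at 6.45 and 15.9 CPM in eWAT, at least 46.4-fold higher. In libraries labelled Crtc1-/- it was at 103 and 59.7 CPM in eWAT against 0.407 and 0.357 CPM in liver (7.70 ± 0.69, adjusted p = 0.00111). Rapgef3 was higher in eWAT in both genotypes, by 2.31 ± 0.43 (adjusted p = 0.00515) in libraries labelled Crtc1+/+ and 4.92 ± 0.46 (adjusted p = 7.62e-04) in those labelled Crtc1-/- on the log2 scale. Rapgef4 was lower in eWAT labelled Crtc1+/+ (-3.02 ± 0.72, adjusted p = 0.0127) and did not pass among libraries labelled Crtc1-/- (-1.91 ± 0.68, adjusted p = 0.0751). Adcy5 was higher in eWAT by 4.08 ± 0.32 (adjusted p = 5.26e-04) and 6.28 ± 0.34 (adjusted p = 3.27e-04). Adcy9 was lower in eWAT labelled Crtc1+/+ (-1.14 ± 0.32, adjusted p = 0.0220) and did not pass among libraries labelled Crtc1-/- (-0.68 ± 0.32, adjusted p = 0.142). By FPKM Adcy9 lay the other way, at 2.16 and 2.65 in eWAT against 1.81 and 2.14 in liver labelled Crtc1+/+. Its direction therefore depended on the scaling. Pde4c, a cAMP-specific enzyme, was lower in eWAT in both genotypes (-2.80 ± 0.38, adjusted p = 0.00186, and -2.47 ± 0.38, adjusted p = 0.00482), as was Pde4dip (-1.08 ± 0.27, adjusted p = 0.0145, and -0.90 ± 0.27, adjusted p = 0.0444). By mean FPKM Pde4dip lay the other way, at 8.8 in eWAT against 6.375 in liver labelled Crtc1+/+. Among libraries labelled Crtc1-/- its mean FPKM was 5.075 in eWAT against 4.5 in liver. The direction of Pde4dip therefore depended on the scaling as well.

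Whether the genotype difference itself differed between eWAT and liver was tested as an interaction. Of 49 members, 9 were called (18.4% against 6.94% of all genes), 6 with a higher difference in eWAT (12.2% against 3.78%), namely Adcy4, Adcy5, Adrb1, Pde2a, Pde9a and Rapgef3, and 3 with a lower one (6.12% against 3.16%), namely Pde1a, Pde8b and Prkacb. With the replicate number as a block 4 were called. Upper-quartile scaling gave 3 and 3, and library-size scaling 3 and 2. Without replicate 1 or 2 of eWAT labelled Crtc1+/+ 3 and 0 were called, without replicate 1 or 2 of liver labelled Crtc1-/- 2 and 2, and without either liver library labelled Crtc1+/+ none. At an unadjusted p under 0.05 there were 17 without replicate 2 of eWAT labelled Crtc1+/+, and 14 and 16 without replicate 1 or 2 of liver labelled Crtc1+/+. Adrb3, called in eWAT, had an interaction of 2.15 ± 0.67 with an adjusted p of 0.0996.

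Genes around the members were taken from lists of the pathway. Among receptors for other ligands that couple to the stimulatory or inhibitory G protein, 11 of 22 tested were higher and none was lower in eWAT of the knockout-labelled mice, and the median log2 fold change was 2.30, against 6.65% of all genes higher, 5.54% lower and a median of -0.05. They included S1pr1, the sphingosine 1-phosphate receptor of endothelium (227 and 129 CPM against 18.3 and 28.7 CPM), Adora1, an inhibitory adenosine receptor (135 and 96.8 CPM against 38.2 and 34.02 CPM), Adora2a, its stimulatory relative (110 and 95.5 CPM against 4.53 and 4.51 CPM), and Hcar1, the inhibitory lactate receptor of adipocytes (118 and 43.9 CPM against 3.95 and 2.75 CPM). In liver edgeR called 0 of 7, with 1 at an unadjusted p under 0.05, while DESeq2 called 1 (S1pr1, which was lower) and limma none. Gcgr, the glucagon receptor, was at 172 and 120 CPM against 200 and 172 CPM (-0.35 ± 0.27, adjusted p = 0.523). In eWAT Gcgr was at 3.74, 105.7, 4.82 and 1.14 CPM in the 4 libraries, the second value being that of the library with hepatocyte transcripts.

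The next 4 lists had shares of called genes between 10.5% and 16.7%, near the 12.2% of all genes called in either direction, and are no result about the lists. Of the G protein subunits, 2 of 19 were higher in eWAT labelled Crtc1-/-, Gng11 (3.57 ± 0.50, adjusted p = 0.0231) and Gnb4 (2.10 ± 0.39, adjusted p = 0.0355), and none was lower. Gnas, which encodes the stimulatory alpha subunit, was at 1386 and 1252 CPM against 1729 and 1695 CPM (-0.38 ± 0.40, adjusted p = 0.535). Of the receptor kinases, arrestins and RGS proteins, 2 of 16 were higher, Arrb1 (adjusted p = 0.0332) and Rgs4, and none was lower. Of the list of A-kinase anchoring proteins, which tether PKA, 1 of 17 was higher and 1 was lower. The lower gene was Ezr, a membrane and cytoskeleton linker abundant in epithelium (66.9 and 19.2 CPM against 579 and 752 CPM), and the higher one was Ldha, a glycolytic enzyme that the list held although it is no classical anchoring protein. Of the PKA inhibitors and other cAMP binding proteins, 2 of 12 were lower and none was higher. Pkib was at 0.989 and 0.625 CPM against 9.20 and 5.60 CPM, and the channel gene Cnga2 had no counts in the libraries labelled Crtc1-/- and was at 3.32 and 4.30 CPM in the others.

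Of the CREB target genes, 3 of 23 were higher in eWAT of the knockout-labelled mice, none was lower, and the median was 0.97. The share was 13.04%, against 6.65% of all genes higher and 12.2% called in either direction, and the median of all genes was -0.05. Pck1, which encodes the enzyme of glyceroneogenesis and gluconeogenesis, was at 2709 and 3332 CPM against 67.8 and 176 CPM (4.63 ± 0.69, adjusted p = 0.0260). Dusp1, a phosphatase of MAP kinases, was at 168 and 205 CPM against 14.4 and 7.57 CPM (4.09 ± 0.44, adjusted p = 0.0172), and the clock gene Per1 was at 176 and 118 CPM against 50.9 and 48.9 CPM (1.56 ± 0.32, adjusted p = 0.0434). In liver edgeR called 1 of 18 (all genes 0.0854%), DESeq2 2 (Nfil3 and Ppp1r3c) and limma none. The edgeR call was Ppp1r3c, a glycogen-targeting subunit of protein phosphatase 1, which was lower (-1.91 ± 0.26, adjusted p = 0.0493). Pck1 in liver was at 1349 and 1037 CPM against 384 and 2042 CPM, and its groups overlapped. In the other 4 lists of 12, 14, 13 and 5 tested genes (G proteins, kinases and arrestins, anchoring proteins, inhibitors and binders) edgeR, DESeq2 and limma called none in liver, and 0, 2, 4 and 0 genes had an unadjusted p under 0.05 in edgeR.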

How the data were processed

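RNA-seq of liver and eWAT gave 8 libraries, 2 in each of 4 groups, and all were used. Deposited by the authors were estimated counts for 19348 genes, which are not normalized, and their FPKM, which correct for gene length and sequencing depth. Per the labels the build was GRCm38.p6, and HISAT and Bowtie2 are named in the submitters' processing notes without roles. The counting tool and annotation are not given in the sources used here. Between 5.44% and 9.98% of values were not whole, and counts were rounded before testing.

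Groups and replicate numbers were taken from the labels. Genes were filtered with filterByExpr, scaled by TMM and tested with the quasi-likelihood method of edgeR 4.0.16 under R 4.3.3, within each tissue for genotype and in 1 fit of all 8 libraries for tissue and interaction. All p-values were adjusted across the tested genes by the Benjamini-Hochberg method. CPM were TMM-scaled. Standard errors were obtained as the ratio of the log2 fold change to the root of its F statistic. The study itself used limma on normalized values, which was an alternative here (limma 3.58.1), as were DESeq2 1.42.0, other scalings and filters, a replicate block and leaving out each library. Levels of different genes were compared by FPKM, and 2 against 2 libraries cannot give an exact permutation p under 0.333. Shares of counts cover counting error only. Scripts were tested on simulated data. Positions were taken from the GENCODE annotation and promoters from RefSeq, both of GRCm38.p6. Figures were drawn with matplotlib 3.10.9 in Python 3.11.15.

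The members and gene lists were chosen with earlier results of these data known. A single member gene is counted among the members but is not reported individually here. Named with values were the adrenoceptors, each member called in a genotype comparison or in the interaction or past the study's threshold, up to 3 members per class with the highest mean FPKM in each tissue, and up to 4 genes of each pathway list, the most abundant of those called.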

Additional observations from a re-analysis of the deposited data

Results flagged for a closer look

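The genotype difference in eWAT minus that in liver, tested as an interaction in 1 edgeR fit of all 8 libraries, passed an adjusted p of 0.05 for 9 members. It was 3.17 ± 0.40 on the log2 scale for Adcy4 (adjusted p = 0.0109), 3.97 ± 0.46 for Pde2a (0.00950) and 2.20 ± 0.44 for Adcy5 (0.0340). It was 4.63 ± 0.97 for Adrb1 (0.0378), which was at 0.210 to 0.462 CPM in liver, 3.19 ± 0.58 for Pde9a (0.0252) and 2.61 ± 0.59 for Rapgef3 (0.0470). It was -5.33 ± 0.91 for Pde8b (0.0208), -1.91 ± 0.44 for Pde1a (0.0481) and -2.32 ± 0.52 for Prkacb (0.0440). For Pde9a the fitted change was 2.69 in eWAT and -0.56 in liver, for Pde8b -3.92 and 1.32, and for Prkacb -1.83 and 0.44. In each of these 3 genes no liver value was past the test. Groups of 2 libraries are too small for a test of single outlying libraries.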

How the results depend on the processing

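With 2 libraries per group, single libraries decided many calls. In eWAT the 12 members called became 20 with DESeq2 (15 higher, 5 lower), where all genes called also rose, from 1875 to 4620. They became 0 with the replicate block (0 of all genes, lowest adjusted p 0.0543, 23 members at an unadjusted p under 0.05), and other alternatives gave 9 to 17. Leaving out single libraries changed the number of members called in both directions. In liver the 0 called became 1 with DESeq2, 1 without the low-count filter and 0 to 3 when each library was left out. Between tissues, the 33 called for Crtc1+/+ became 18 to 32 when each library was left out, and the 22 called for Crtc1-/- became 11 to 27. Each of those fits left 1 library in a group. With the block 13 were called for Crtc1-/-, while more than 33 were called for Crtc1+/+. Library-size scaling also gave more calls than the main fit, for both genotypes. The 9 interaction calls became 5 with library-size scaling, 18 and 16 with limma at pseudocounts of 1 and 0.1, 4 with the block and 0 to 11 when each library was left out. Same-numbered libraries of the genotypes did not deviate together (r over genes 0.0138 in eWAT and 0.0737 in liver). With 2 libraries per group, this cannot tell whether they share more than a number. Between the tissues r was 0.177 for Crtc1+/+ and 0.0202 for Crtc1-/-, and whether equal numbers mark 1 mouse is not given. The cause of these changes was not tested.

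Members that had not passed the test changed the sign of their fitted log2 change. In eWAT, Adcy9 turned to -0.16 with upper-quartile scaling, -0.28 with library-size scaling, -0.0037 at a mean count of at least 50 and -0.0236 in the fit of 8 libraries, and ran from -0.20 to 0.27 when each library was left out. Prkar1a turned to -0.13, -0.22, -0.30 and -0.30 (limma) and -0.0106 (8 libraries), and ran from -0.0793 to 0.28. In liver, Adra1b turned to 0.0147 with upper-quartile scaling, 0.0022 at a mean count of at least 50 and 0.0058 and 0.0068 with limma, Prkar1b to -0.0245 and -0.0349 and Rapgef3 to -0.0427 and -0.13 with limma. When each liver library was left out, Adra1b ran from -0.16 to 0.0012, Adcy6 from -0.10 to 0.20, Adra2b from -0.19 to 0.91, Pde4c from -0.16 to 0.34, Prkar1b from -0.38 to 1.36, Prkar2a from -0.0444 to 0.67 and Rapgef3 from -0.71 to 0.69. Of the remaining values of single members in eWAT, 327 kept their direction and side of the threshold, 42 lost the threshold and 24 passed it, and in liver 283 kept both and 4 passed it.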
